A study of Danio rerio with 9 samples.

Results

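Liver RNA of maternal-zygotic pdia6 null zebrafish was set against liver RNA of wild-type zebrafish. The comparison used 6 of the 9 libraries of the series, 3 from each group, and tested 12824 of the 33716 genes in the table. A gene was tested where its level as deposited, in FPKM (fragment counts scaled by gene length and library size), averaged at least 0.5 over the 6 libraries. The pdia6 null fish carried pdia6-/- from both the egg and their own genome (MZ pdia6-/-), and the wild-type fish belonged to the AB line. Both groups were 3.5 months old, and each library came from liver. The remaining libraries, from MZ focad-/- livers with no age in the labels used here, entered only 1 alternative fit of the same comparison and are given for a few genes as values. The labels name AB for wild type only, so line and genotype cannot be told apart in any difference below. They do not say how the pdia6 allele was made, nor whether each library is a fish of its own. Every p-value therefore weighs a group difference against the spread among these libraries, and that spread may be technical.

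Pdia6 is a protein disulfide isomerase, an enzyme of the endoplasmic reticulum (ER) that forms and rearranges disulfide bonds in proteins on their way to secretion. It works beside other isomerases, the chaperones of the ER and the glycosylation machinery, and it is known to bind sensors of the unfolded protein response, the program that raises ER folding capacity when unfolded protein builds up. The liver relies on these enzymes because hepatocytes secrete most plasma proteins, many of which are held together by disulfide bonds.

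The 6 libraries held 46.07 to 51.52 M reads. Hepatocyte markers were abundant in all of them, with 29 of 30 matched genes tested and a summed level of 189000 to 219000 FPKM in pdia6 null livers and 204000 to 215000 FPKM in wild-type livers. Summed exocrine pancreas markers ran from 820 to 1680 FPKM in pdia6 null livers and from 645 to 1730 FPKM in wild-type livers. Summed macrophage markers ran from 325 to 476 FPKM in pdia6 null livers and from 402 to 554 FPKM in wild-type livers. Thrombocyte and endothelial markers summed to 1270 to 1350 FPKM in pdia6 null livers and to 1390 to 1940 FPKM in wild-type livers, without overlap. Of their 17 tested members, 3 separated the groups as higher and 4 as lower (41.2%, against 20.7% of all genes tested). None was called, and their median log2 change was -0.12. Summed intestine markers did not overlap, at 1850 to 4570 FPKM in pdia6 null livers and 876 to 1490 FPKM in wild-type livers. That sum was carried by 2 IDs named rbp2, a retinol-binding protein. Of the 13 tested members of that list 6 had a change above 0, and the median log2 change was -0.07. Of the same 13, 2 separated the groups as higher and 2 as lower (30.8%, against 20.7% of all genes tested). The defining enterocyte gene fabp2, chosen after its values were seen, stood at 0.23 to 3.57 FPKM in pdia6 null livers and 2.63 to 5.31 FPKM in wild-type livers, and alpi.1 and pyya had no read in any of the 6. The part of intestinal RNA in the results was not tested. The labels give no sex, and the summed vitellogenin and estrogen response list was 476 to 655 FPKM in pdia6 null livers and 537 to 598 FPKM in wild-type livers. In whole tissue, fewer cells of a type and less RNA per cell cannot be told apart.

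The targeted transcript checked the labels. Pdia6 (ENSDARG00000009001) was read at 46.9, 0.933 and 0.907 FPKM in libraries 1 to 3 of the labelled pdia6 null group, against 269, 12.5 and 54.2 FPKM in wild-type replicates 1 to 3. These levels rest on 2887, 61 and 56 reads in the pdia6 null libraries and on 15768, 730 and 3353 reads in the wild-type libraries. Replicates 2 and 3 lay below every wild-type library, whereas the library labelled pdia6 null replicate 1 lay inside the wild-type range. Taken alone, that level goes against its label. The same library was the highest of the 6 at the 15 other genes in the plot of ER genes by library. At hspa5, for example, it stood at 2499 FPKM, against 744 FPKM in wild-type replicate 1. The plotted genes are a selection. Among ER and stress genes outside the plot, that library was also the highest at atf6, sel1l, fkbp11, selenos, sec61b and dnajb9. It was not the highest at ern1, eif2ak3, atf4a, atf4b, ddit3 or ero1a. At ern1 it stood at 4.26 FPKM, against 6.82 FPKM in pdia6 null replicate 2. At pdia6 it lay below wild-type replicate 1, and how its pdia6 level relates to its other ER genes was not tested. Some null alleles keep their transcript. The log2 change was -3.48 ± 1.49 (SE) and did not pass the test (limma adjusted p = 0.350; exact 2-sided permutation p = 0.2, where 3 libraries against 3 cannot go below 0.1). Without that library it was -4.99 ± 1.13, with a limma adjusted p of 0.152. A second measurement compared that library with replicates 2 and 3 of its group. It cannot test the pdia6 genotype, because line and genotype cannot be told apart in these differences. Of the 118 genes called when that library was left out, it lay on the pdia6 null side of the wild-type range at 112 (94.9%), against 45.4% of all genes tested and 65.4% of the 4083 genes at which replicates 2 and 3 both lay on one side of the wild-type range. It was kept under its label. Without it the number of called members changed in 17 of the 63 gene lists, with 6 gaining and 11 losing calls, and values without it stand beside the results below that turn on it.

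Over all genes tested, 179 differed between pdia6 null and wild-type livers at a limma adjusted p below 0.05, which is 1.4% of genes. Of these, 74 were higher in pdia6 null livers (0.577%) and 105 were lower (0.819%). The groups did not overlap at any of the 179, a separation that 20.7% of all genes tested showed. Called genes changed by a median size of 1.81 on the log2 scale, against 0.26 over all genes, and 8 higher and 21 lower genes changed by more than 3. Many called genes were close to absent in one group. In 11 of the higher genes the 3 wild-type libraries together held at most 3 reads, and in 17 of the lower genes the 3 pdia6 null libraries did. These 28 genes made up 15.6% of the called genes, against 0.686% of all genes tested. The count depended on single libraries. Leaving out pdia6 null replicate 1, 2 or 3 gave 118, 78 or 100 calls (0.920%, 0.608% or 0.780% of genes tested). Leaving out wild-type replicate 1, 2 or 3 gave 235, 89 or 89 calls (1.83%, 0.694% or 0.694%).

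**Figure D1:**
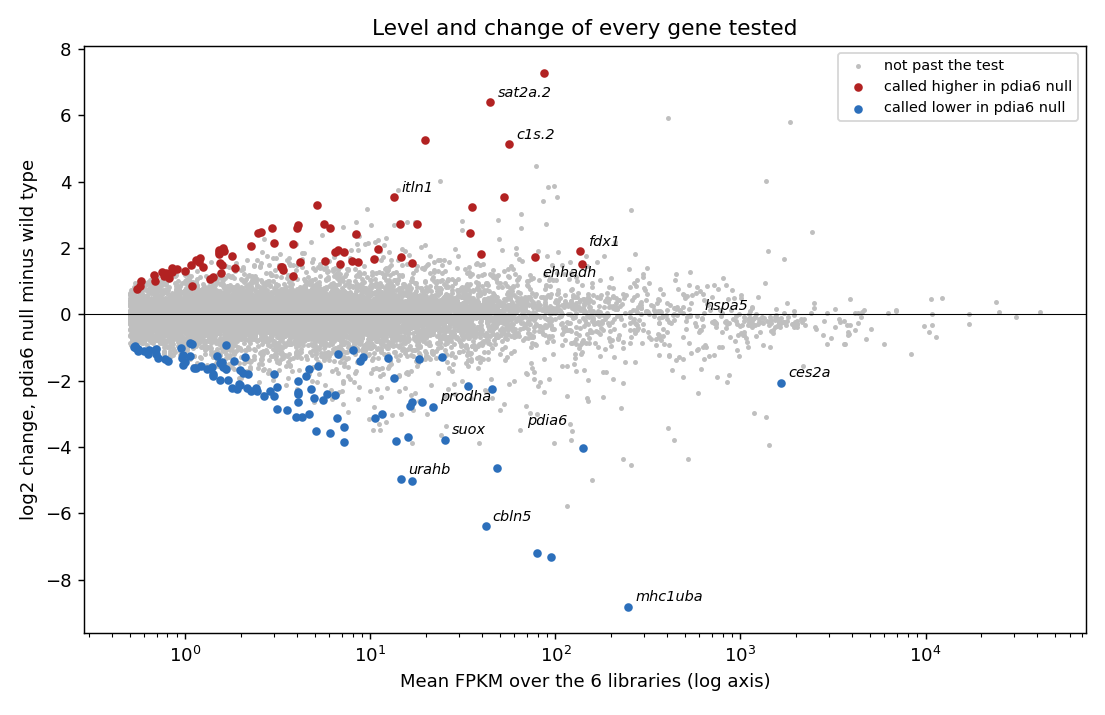
Each point is a gene tested, with its mean level over the 6 libraries on the x axis (FPKM, log axis) and its log2 change, pdia6 null minus wild type, on the y axis. The 74 genes called higher are red and the 105 called lower are blue, and pdia6 and hspa5 are grey because they did not pass the test.

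The folding enzymes most closely related to pdia6 did not pass the test. None of the 26 tested genes of the protein disulfide isomerase and ER oxidase list was called by limma, and 1 had an unadjusted p below 0.05, against 14.6% of all genes tested. Their median log2 change was 0.12, against 0 over all genes. The share called over all genes tested was 1.4%, at which a list this short can hold no call. In this list, and in every list below with no call, limma voom on recovered reads, which called 0.663% of all genes, made no call either. Less strict alternatives called a few members of such lists, as given at the end. Pdia4, an isomerase with several thioredoxin-like domains, stood at 2630, 10.8 and 84.4 FPKM in replicates 1 to 3 of the pdia6 null group, against 416, 3.66 and 75.2 FPKM in wild-type replicates 1 to 3. Its level ranged more widely within each group than between them. Pdia3, the isomerase that acts on glycoproteins, stood at 1276, 572 and 476 FPKM in pdia6 null livers, against 688, 371 and 432 FPKM in wild-type livers. P4hb, the founding member of the family, stood at 335, 241 and 218 FPKM in pdia6 null livers, against 223, 125 and 92.4 FPKM in wild-type livers. The groups overlapped narrowly at p4hb, where pdia6 null replicate 3 lay just below wild-type replicate 1, and the log2 change of 0.80 ± 0.36 did not pass (limma adjusted p = 0.367). Ero1a, which reoxidizes the isomerases, was low in every library, at 0.621, 0.254 and 1.29 FPKM in pdia6 null livers and 1.01, 0.185 and 0.431 FPKM in wild-type livers.

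The chaperones of the ER lumen gave no call. None of 32 tested members passed and none had an unadjusted p below 0.05, against 1.4% and 14.6% of all genes tested. Their median was 0.25 with all libraries and -0.16 once the library labelled pdia6 null replicate 1 was left out. Hspa5, the ER Hsp70 known as BiP, stood at 2499, 16.9 and 37.6 FPKM in replicates 1 to 3 of the pdia6 null group, against 744, 9.35 and 192 FPKM in wild-type replicates 1 to 3. Hsp90b1, the ER Hsp90, stood at 3005, 68.9 and 217 FPKM in pdia6 null livers, against 821, 35.1 and 193 FPKM in wild-type livers. Replicate 1 was the highest library of its group for both genes, and pdia6 null replicate 2 and wild-type replicate 2 were the lowest of theirs. Calr, a lectin chaperone, stood at 108, 6.17 and 24.7 FPKM in pdia6 null livers, against 107, 4.35 and 32.7 FPKM in wild-type livers, in the same order of replicates. The log2 change of hspa5 was -0.04 ± 2.17 with all libraries and -2.20 with the library labelled pdia6 null replicate 1 left out, and neither passed (limma adjusted p = 0.995 and 0.632). For hyou1, an Hsp70-like nucleotide exchange factor, the log2 change was 0.38 ± 1.56 with that library and -1.15 without it. What set the libraries numbered 1 apart at these genes was not tested.

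**Figure D2:**
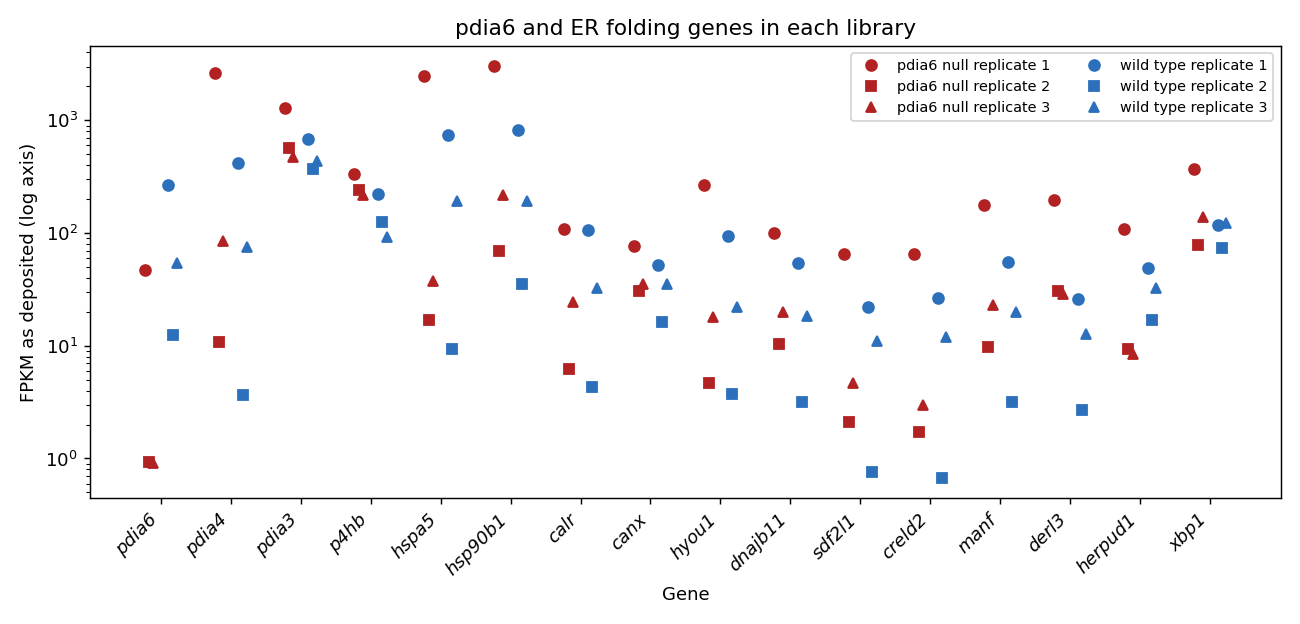
Level of pdia6 and 15 other ER folding, degradation and stress genes in each library (y axis, FPKM as deposited, log axis), with pdia6 null libraries in red left of wild-type libraries in blue and the replicate number given by the symbol. The library labelled pdia6 null replicate 1 is the highest of the 6 at 15 of the 16 genes, and wild-type replicate 1 is the highest at pdia6 itself.

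Genes of ER-associated degradation, which extracts misfolded proteins to the cytosol, gave no call among 27 tested members (median log2 change 0.04). An unadjusted p below 0.05 was reached at 1 of them. The shares over all genes tested were 1.4% called and 14.6% at an unadjusted p below 0.05. Derl3, a channel component of that pathway, stood at 196, 30.4 and 28.9 FPKM in pdia6 null livers, against 25.9, 2.67 and 12.7 FPKM in wild-type livers. Every pdia6 null library lay above every wild-type library, but the log2 change of 2.26 ± 0.93 did not pass (limma adjusted p = 0.334), and it was 1.39 without the library labelled pdia6 null replicate 1. Herpud1, a membrane protein of the same pathway, stood at 108, 9.41 and 8.44 FPKM in pdia6 null livers, against 49.0, 17 and 32.5 FPKM in wild-type livers. Replicates 2 and 3 lay below the wild-type range at herpud1, and replicate 1 lay above it.

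The sensors and transcription factors of the unfolded protein response gave no call among 12 tested genes (1 at an unadjusted p below 0.05). Their median was 0.28, and -0.04 leaving out the library labelled pdia6 null replicate 1. Of all genes tested, 1.4% were called and 14.6% had an unadjusted p below 0.05. Ern1, the IRE1 sensor, stood at 4.26, 6.82 and 3.1 FPKM in pdia6 null livers, against 4.56, 4.38 and 4.61 FPKM in wild-type livers. Atf6, the membrane-bound transcription factor, stood at 53.5, 16.6 and 24.8 FPKM in pdia6 null livers, against 24.9, 14 and 23.0 FPKM in wild-type livers. Xbp1, whose message is spliced by ern1, stood at 370, 78.4 and 140 FPKM in pdia6 null livers, against 118, 73.7 and 122 FPKM in wild-type livers. The groups overlapped at all 3 genes, and splicing of xbp1 is not measured by gene levels. The integrated stress response gave no call among 36 tested genes (4 at an unadjusted p below 0.05, median 0.12). Ddit3, a stress-induced transcription factor also called CHOP, stood at 9.63, 6.85 and 10.1 FPKM in pdia6 null livers, against 6.09, 9.73 and 10.3 FPKM in wild-type livers.

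Upstream and downstream of folding, a single gene passed. Alg9, a mannosyltransferase that builds the N-glycan precursor in the ER, stood at 6.42, 4.0 and 5.62 FPKM in pdia6 null livers, against 1.65, 0.784 and 1.33 FPKM in wild-type livers. The groups did not overlap, and alg9 was higher in pdia6 null livers by 1.42 ± 0.22 on the log2 scale (limma adjusted p = 0.0373). The call was lost without any one of the 6 libraries (limma adjusted p from 0.0517 to 0.124). It was the only call among 34 tested N-glycosylation genes, and the list median was 0.46 with all libraries and 0.06 with the library labelled pdia6 null replicate 1 left out. The 23 tested genes of the translocon, which passes new proteins into the ER, gave no call (1 at an unadjusted p below 0.05), with medians of 0.50 and 0.15 on the same terms. The 43 tested genes of ER to Golgi transport gave none either (3 at an unadjusted p below 0.05), with a median of 0.02. Across all genes tested, 1.4% were called and 14.6% had an unadjusted p below 0.05.

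**Figure D3:**
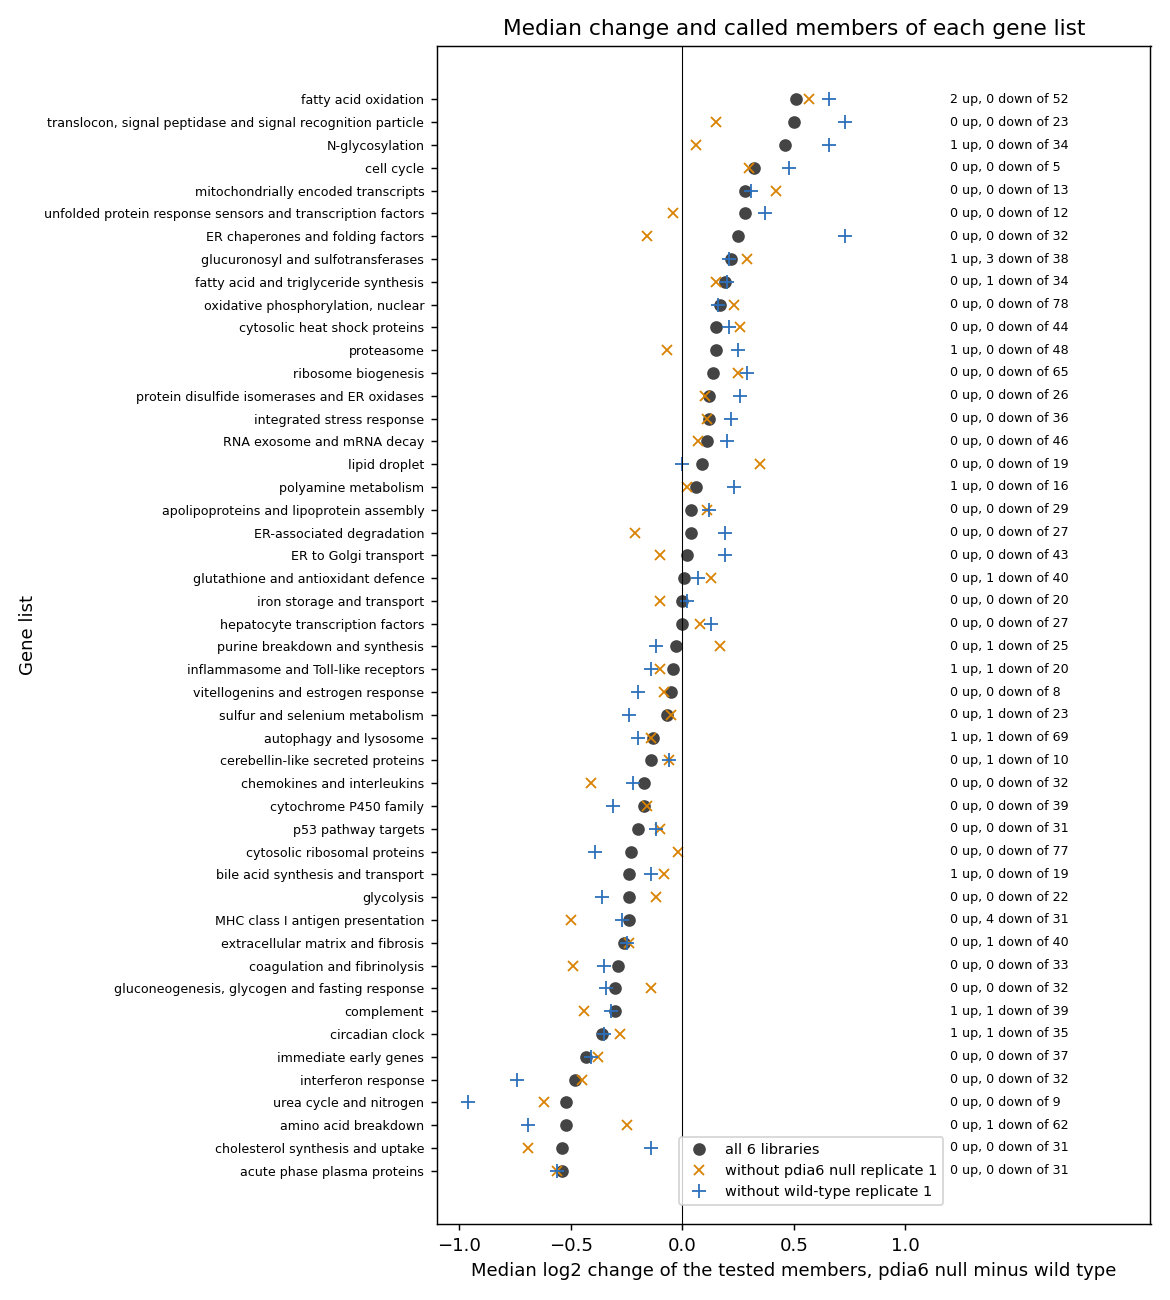
Median log2 change (x axis, pdia6 null minus wild type) of the tested members of each gene list (y axis) with all 6 libraries (dots), without the library labelled pdia6 null replicate 1 (crosses) and without wild-type replicate 1 (plus signs), with the called members printed at the right. The ER chaperone median is 0.25, -0.16 and 0.73 in these fits, and the fatty acid oxidation median is 0.51, 0.57 and 0.66.

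The largest decrease was in a gene of antigen presentation by major histocompatibility complex (MHC) class I, the molecules that show peptides from inside the cell to T cells. Of 31 tested genes on that list 4 were lower and none higher (12.9% called, against 1.4% of all genes tested), with a list median of -0.24. Without the library labelled pdia6 null replicate 1 there were 3 lower. With all libraries, 11 of the 31 genes separated the groups, all of them lower in pdia6 null livers (35.5%, against 20.7% of all genes tested). An unadjusted p below 0.05 was reached at 13 of the 31, against 14.6% of all genes tested. Mhc1uba, a class I chain, stood at 0.0174, 0.0328 and 0.104 FPKM in pdia6 null livers, against 310, 807 and 364 FPKM in wild-type livers. Mhc1uba was thus close to absent in every pdia6 null library, with 9 reads over the group, and abundant in every wild-type library. Its log2 change was -8.80 ± 0.41 (limma adjusted p = 0.000319). A second class I chain, mhc1uca, had no read in any pdia6 null library and stood at 11, 12.3 and 7.29 FPKM in wild-type livers, which is at least 629-fold lower against a floor of 3 reads in the whole group. Its limma adjusted p was 0.00143, and both genes passed in all 6 fits that each left out 1 library.

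The other 2 called genes of the list act beside class I chains. Psmb8, a catalytic subunit of the immunoproteasome that cuts peptides for presentation, stood at 3.54, 1.15 and 1.48 FPKM in pdia6 null livers, against 17, 26.3 and 19.7 FPKM in wild-type livers, a log2 change of -3.0 ± 0.34 (limma adjusted p = 0.0125). Tapbp.1, tapasin, which loads peptides onto class I molecules in the ER, stood at 1.33, 0.815 and 0.959 FPKM in pdia6 null livers, against 8.12, 12.5 and 5.10 FPKM in wild-type livers, a log2 change of -2.25 ± 0.32 (limma adjusted p = 0.0281). No pdia6 null library reached the wild-type range at either gene. The psmb8 call was lost without pdia6 null replicate 2 or 3 (limma adjusted p = 0.0505 and 0.0541). The tapbp.1 call was kept without wild-type replicate 2 or 3 (limma adjusted p = 0.0389 and 0.0289) and lost in the other 4 such fits, at up to 0.114. B2m, the light chain that all class I molecules share, overlapped between the groups at 348, 392 and 401 FPKM in pdia6 null livers, against 276, 660 and 384 FPKM in wild-type livers. Mhc1zba, a class I chain of another lineage, stood at 140, 124 and 68.1 FPKM in pdia6 null livers, against 187, 289 and 241 FPKM in wild-type livers. It was lower in every pdia6 null library, without overlap, but the log2 change of -1.26 ± 0.36 did not pass (limma adjusted p = 0.181). Class I chains are a multigene family, and reads shared between near-identical copies make their levels uncertain.

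**Figure D4:**
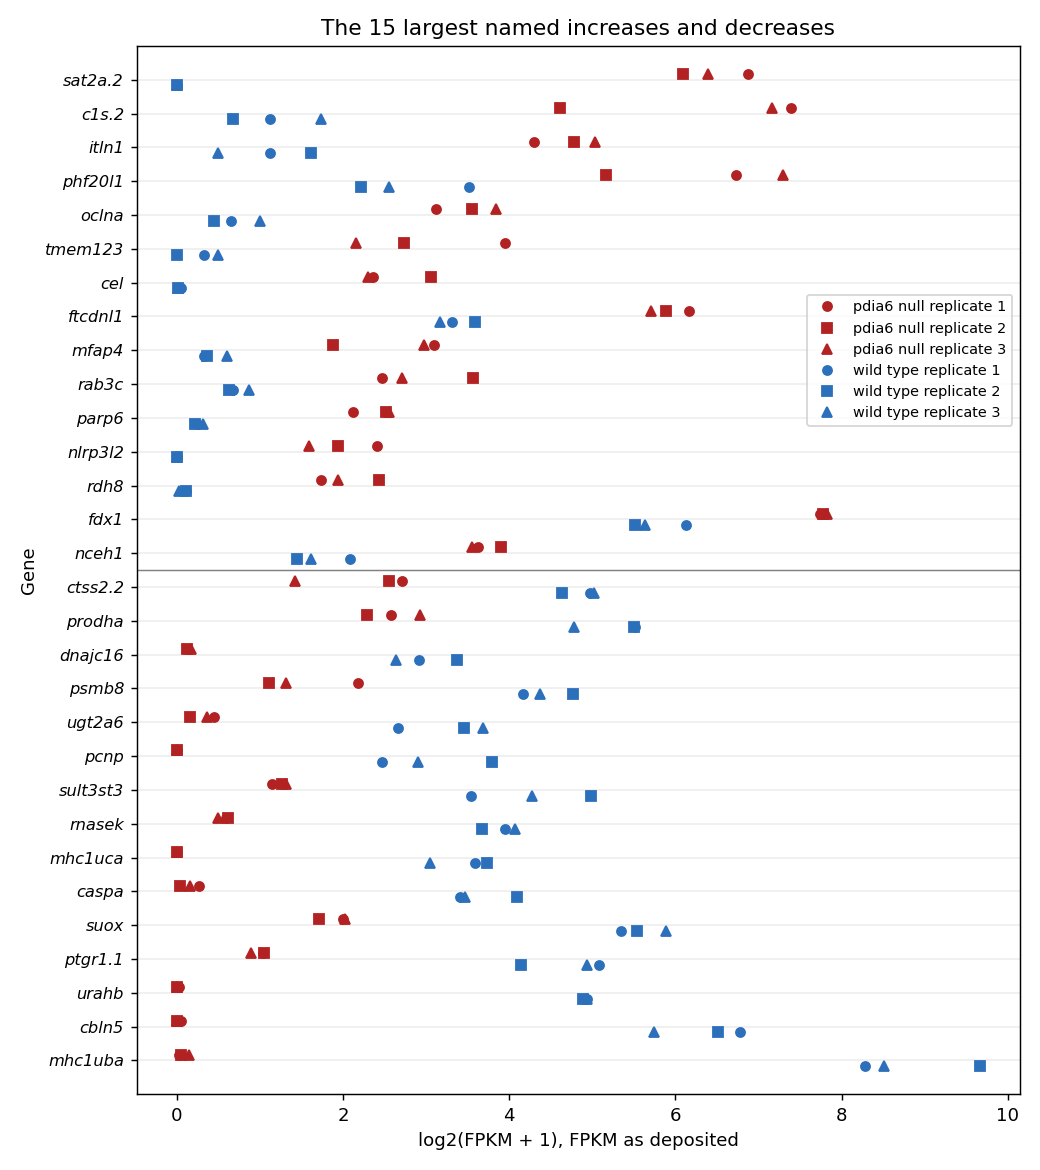
Level in each library, as log2(FPKM + 1) with FPKM as deposited (x axis), of the 15 largest increases (above the line) and 15 largest decreases (below it) among called genes with a name. Pdia6 null libraries are red, wild-type libraries are blue, and the groups overlap at none of the 30 genes.

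Several metabolic enzymes were lower in every pdia6 null library. Urahb, an enzyme of uric acid breakdown, stood at 0.0152, 0 and 0 FPKM in pdia6 null livers, against 29.7, 28.7 and 29.7 FPKM in wild-type livers. A single read was counted over the 3 pdia6 null libraries, and the wild-type libraries were nearly equal. The log2 change was -4.97 ± 0.16 (limma adjusted p = 4.73e-05). Suox, sulfite oxidase, the last step of sulfur amino acid breakdown, stood at 3.00, 2.26 and 3.08 FPKM in pdia6 null livers, against 39.5, 45.3 and 58.2 FPKM in wild-type livers, a log2 change of -3.78 ± 0.24 (limma adjusted p = 0.00139). Prodha, proline dehydrogenase, stood at 4.96, 3.87 and 6.57 FPKM in pdia6 null livers, against 44.6, 44.3 and 26.5 FPKM in wild-type livers, a log2 change of -2.78 ± 0.30 (limma adjusted p = 0.0108). All 3 enzymes separated the groups completely and passed in all 6 fits that each left out 1 library. They were the only called genes of their lists, which were 25 purine, 23 sulfur and selenium and 62 amino acid breakdown genes with medians of -0.03, -0.07 and -0.52.

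Enzymes that modify foreign and endogenous small molecules moved in both directions. Ptgr1.1, a reductase of prostaglandins and reactive aldehydes, stood at 1.05, 1.07 and 0.849 FPKM in pdia6 null livers, against 32.9, 16.6 and 29.7 FPKM in wild-type livers (log2 change -3.81 ± 0.24, limma adjusted p = 0.00141). It was the only called gene of 40 glutathione and antioxidant genes, whose median was 0.01. Among 38 glucuronosyl- and sulfotransferases, 3 were lower and 1 was higher (10.5% called, against 1.4% of all genes tested), and 2 were lower and 0 higher without the library labelled pdia6 null replicate 1. Sult3st3, a sulfotransferase, stood at 1.22, 1.4 and 1.49 FPKM in pdia6 null livers, against 10.6, 30.6 and 18.3 FPKM in wild-type livers (log2 change -3.11 ± 0.40, limma adjusted p = 0.0196). Ugt2a6 and ugt5a2, UDP-glucuronosyltransferases, were lower by log2 changes of -3.01 ± 0.31 and -2.32 ± 0.26 (limma adjusted p = 0.00975 and 0.0130). Ugt5b3, of the same family, was higher, at 2.3, 2.24 and 2.55 FPKM in pdia6 null livers against 0.419, 0.513 and 0.470 FPKM in wild-type livers (log2 change 1.13 ± 0.15, limma adjusted p = 0.0189). The calls of ptgr1.1 and ugt2a6 passed in all 6 fits that each left out 1 library, and that of ugt5a2 was lost without pdia6 null replicate 2 (limma adjusted p = 0.0608). Sult3st3 passed only without wild-type replicate 1 or 2 (limma adjusted p = 0.0102 and 0.0294, against 0.0803 at most in the other 4), and ugt5b3 only without wild-type replicate 1 (0.0452, against 0.0780 at most). These are gene families in clusters of similar copies, so their counts carry the same uncertainty as the class I chains. None of 39 tested cytochrome P450 genes was called by limma (median -0.17), and 6 had an unadjusted p below 0.05, against 14.6% of all genes tested.

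The other large decreases were in genes of varied roles. Cbln5, a secreted protein of the cerebellin and C1q family, stood at 0.0321, 0 and 0 FPKM in pdia6 null livers, against 109, 89.9 and 52.7 FPKM in wild-type livers (log2 change -6.38 ± 0.28, limma adjusted p = 0.000225). Caspa, an inflammatory caspase, stood at 0.200, 0.0252 and 0.120 FPKM in pdia6 null livers, against 9.61, 16.1 and 10.1 FPKM in wild-type livers (log2 change -3.57 ± 0.26, limma adjusted p = 0.00245). Both were close to absent in the pdia6 null libraries and passed in all 6 fits that each left out 1 library. Rnasek, a small membrane ribonuclease, and dnajc16, a J-domain protein, also passed in all 6, at log2 changes of -3.40 ± 0.17 and -2.89 ± 0.24 (limma adjusted p = 0.000372 and 0.00465). Pcnp, a nuclear protein, had no read in pdia6 null livers and stood at 4.53, 12.8 and 6.45 FPKM in wild-type livers, at least 187-fold lower by the same floor, and passed only without wild-type replicate 1 or 2 (limma adjusted p = 0.0149 and 0.00959, against 0.0668 at most). Rnasek, dnajc16 and pcnp each share their symbol with a second gene ID, so these values belong to 1 ID of a pair. Ctss2.2, a cathepsin S of lysosomes and macrophages, stood at 5.54, 4.85 and 1.67 FPKM in pdia6 null livers, against 30.5, 23.8 and 31.3 FPKM in wild-type livers (limma adjusted p = 0.0172). Its call was lost without pdia6 null replicate 2 or wild-type replicates 2 or 3 (limma adjusted p = 0.0572, 0.0618 and 0.0703).

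The largest increase in a named gene was in sat2a.2, named for an acetyltransferase of the polyamine pathway. Its level was 116, 67.2 and 83.0 FPKM in pdia6 null livers and had no read in any wild-type library, which is at least 3873-fold higher against a floor of 3 reads in the whole group. The log2 change was 6.39 ± 0.23 (limma adjusted p = 6.76e-05), and it passed in all 6 fits that each left out 1 library. It was the only called gene of 16 polyamine genes. Nlrp3l2, named for the inflammasome sensor NLRP3, stood at 4.33, 2.84 and 2.00 FPKM in pdia6 null livers and also had no wild-type read, at least 652-fold higher by the same floor (limma adjusted p = 0.0108, and at most 0.0491 without any one library). Cel, carboxyl ester lipase, a digestive enzyme of the exocrine pancreas, stood at 4.13, 7.35 and 3.91 FPKM in pdia6 null livers, against 0.0355, 0.0119 and 0.0112 FPKM in wild-type livers (log2 change 2.49 ± 0.23, limma adjusted p = 0.00622, and at most 0.0317 without any one library). It is 1 of 2 IDs with that symbol and the only called gene of 31 exocrine pancreas markers. The other pancreas markers did not separate the groups, as with prss1, a trypsin, at 100, 216 and 121 FPKM in pdia6 null livers and 74.7, 215 and 98.6 FPKM in wild-type livers.

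The other increases were in genes of varied roles. Itln1, intelectin, a lectin that binds microbial sugars and 1 of 2 IDs with that symbol, stood at 18.7, 26.5 and 31.7 FPKM in pdia6 null livers, against 1.17, 2.05 and 0.408 FPKM in wild-type livers (log2 change 3.53 ± 0.36, limma adjusted p = 0.00926). Oclna, occludin of tight junctions, stood at 7.69, 10.7 and 13.3 FPKM in pdia6 null livers, against 0.574, 0.359 and 1.00 FPKM in wild-type livers (log2 change 2.73 ± 0.26, limma adjusted p = 0.00779). Both passed in all 6 fits that each left out 1 library, as did ftcdnl1, parp6, an ADP-ribosyltransferase, and rdh8, a retinol dehydrogenase and 1 of 3 IDs so named, at log2 changes of 2.45 ± 0.24, 2.07 ± 0.18 and 1.9 ± 0.21. Rab3c, a small GTPase of regulated secretion, was higher by 2.12 ± 0.30 (limma adjusted p = 0.0273) and passed in 2 of those fits, without pdia6 null replicate 1 or 2 (limma adjusted p = 0.0313 and 0.0363, against 0.102 at most). Tmem123, a transmembrane protein, was higher by 2.61 ± 0.43 (limma adjusted p = 0.0441) and passed in 2, without pdia6 null replicate 1 or 3 (limma adjusted p = 0.0310 and 0.0411, against 0.142 at most). Phf20l1, a reader of methylated lysine, stood at 105, 34.8 and 156 FPKM in pdia6 null livers, against 10.4, 3.66 and 4.85 FPKM in wild-type livers (log2 change 3.53 ± 0.59, limma adjusted p = 0.0460). It passed without pdia6 null replicate 2 (limma adjusted p = 0.0270) and in no other of those fits (0.152 at most). Mfap4, known as a macrophage marker in zebrafish, was higher by 2.14 ± 0.33 for 1 of the 8 IDs with that symbol (limma adjusted p = 0.0374) and passed only without pdia6 null replicate 2 (0.0110, against 0.127 at most). The macrophage list as a whole had 1 gene higher, mfap4, and 1 lower, ctss2.2, among 20 tested, with a median of -0.28. The share called over all genes tested was 1.4%. Of the same 20, 1 separated the groups as higher and 3 as lower, and 20.7% of all genes tested separated them.

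Genes of fatty acid oxidation, the breakdown of fatty acids in mitochondria and peroxisomes, had 2 calls among 52 tested members, both higher in pdia6 null livers (3.85% called, against 1.4% of all genes tested). There were 7 calls, all higher, without wild-type replicate 1, and 0 without both libraries numbered 1. The log2 change was above 0 at 38 of the 52, with a median of 0.51, and 24 genes separated the groups (46.2%, against 20.7% of all genes tested), 22 of them higher in pdia6 null livers. Ehhadh, the bifunctional enzyme of peroxisomes, stood at 101, 142 and 121 FPKM in pdia6 null livers, against 40.6, 28.6 and 30.6 FPKM in wild-type livers (log2 change 1.72 ± 0.25, limma adjusted p = 0.0274). Acadsb, an acyl-CoA dehydrogenase with a namesake ID, stood at 1.41, 1.66 and 2.26 FPKM in pdia6 null livers, against 0.0573, 0.0288 and 0.0204 FPKM in wild-type livers (log2 change 1.37 ± 0.17, limma adjusted p = 0.0159). No pdia6 null library reached down to the wild-type range at either gene. The ehhadh call was kept without pdia6 null replicate 1 or wild-type replicate 1 (limma adjusted p = 0.0381 and 0.0467) and lost in the other 4 such fits (0.118 at most), and the acadsb call was lost without pdia6 null replicate 2 or wild-type replicates 2 or 3 (0.0608, 0.0697 and 0.0656). Slc25a20, the carnitine carrier of mitochondria, stood at 200, 189 and 155 FPKM in pdia6 null livers, against 81.2, 74.7 and 70.9 FPKM in wild-type livers, and did not pass (limma adjusted p = 0.0795). The library labelled pdia6 null replicate 1 did not set the median of this list, which was 0.57 without it.

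Other lipid genes gave few calls. Slc25a1a, the mitochondrial citrate carrier that feeds fatty acid synthesis, stood at 0.842, 0.254 and 0.248 FPKM in pdia6 null livers, against 2.12, 3.34 and 2.66 FPKM in wild-type livers (log2 change -1.44 ± 0.24, limma adjusted p = 0.0438). It was the only call among 34 genes of fatty acid and triglyceride synthesis (median 0.19), and among the fits that each left out 1 library it passed only without wild-type replicate 1 (limma adjusted p = 0.0448, against 0.157 at most). Angptl4, a secreted inhibitor of lipoprotein lipase, stood at 239, 212 and 107 FPKM in pdia6 null livers, against 36.4, 16.4 and 3.30 FPKM in wild-type livers. Plin2, a coat protein of lipid droplets, stood at 23.9, 17.6 and 50.1 FPKM in pdia6 null livers, against 9.53, 1.58 and 1.21 FPKM in wild-type livers. Every pdia6 null library lay above every wild-type library at both genes, but neither passed (limma adjusted p = 0.0993 and 0.124). Angptl4 was called in the authors' deposited table of this comparison, whose test is not stated, and plin2 was not. Plin2 passed without wild-type replicate 1, with a limma adjusted p of 0.0368.

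None of 31 genes of cholesterol synthesis and uptake passed with limma, and 2 of the 31 had an unadjusted p below 0.05, against 14.6% of all genes tested. The change was above 0 at 4 of the 31, and the list median was -0.54 with all libraries and -0.14 without wild-type replicate 1. Cyp46a1.3, of the cholesterol 24-hydroxylase family, was higher at 21, 15.2 and 13.4 FPKM in pdia6 null livers against 5.98, 4.03 and 2.78 FPKM in wild-type livers (log2 change 1.66 ± 0.27, limma adjusted p = 0.0434). It was the only call among 19 bile acid genes and passed only without wild-type replicate 1 of the 6 libraries (limma adjusted p = 0.0443, against 0.136 at most). Fdx1, the ferredoxin that passes electrons to mitochondrial P450 enzymes, was higher at 212, 218 and 226 FPKM in pdia6 null livers against 69.1, 44.6 and 48.6 FPKM in wild-type livers (log2 change 1.9 ± 0.24, limma adjusted p = 0.0172). It passed without pdia6 null replicate 1 or wild-type replicate 1 (limma adjusted p = 0.0386 and 0.0295, against 0.0843 at most in the other 4). Nceh1, a hydrolase of cholesterol esters and 1 of 3 IDs with that symbol, was higher by 1.88 ± 0.21 (limma adjusted p = 0.0116), a call lost without wild-type replicate 3 (0.0522).

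Plasma proteins secreted by hepatocytes gave few calls. Complement had 1 gene higher and 1 lower among 39 (5.13% called, against 1.4% of all genes tested), with a median of -0.30. C1s.2, a protease of the first complement component, stood at 167, 23.5 and 142 FPKM in pdia6 null livers, against 1.17, 0.601 and 2.34 FPKM in wild-type livers (log2 change 5.12 ± 0.74, limma adjusted p = 0.0294). Pdia6 null replicate 2 was the lowest of its group, and the call was kept only without it among the 6 libraries (limma adjusted p = 0.00536, against 0.107 at most). Mbl2, the mannose-binding lectin, stood at 0.0443, 0.209 and 0.155 FPKM in pdia6 null livers, against 1.09, 1.31 and 1.37 FPKM in wild-type livers (log2 change -1.03 ± 0.15, limma adjusted p = 0.0273), and passed only without wild-type replicate 1 (0.0344, against 0.0967 at most). None of 33 coagulation genes (9 at an unadjusted p below 0.05, median -0.29) and none of 31 acute phase genes (6 at an unadjusted p below 0.05, median -0.54) passed with limma. The share of all genes tested with an unadjusted p below 0.05 was 14.6%. In these 2 lists, 12 coagulation genes (36.4%) and 9 acute phase genes (29.0%) separated the groups, against 20.7% of all genes tested. The separated coagulation genes were 3 higher and 9 lower in pdia6 null livers, and the separated acute phase genes were all lower. Without the library labelled pdia6 null replicate 1, both IDs of proc, protein C of the anticoagulant pathway, and crp5, of the C-reactive protein family, were lower with limma. One ID of proc stood at 87.6, 4.59 and 2.54 FPKM in pdia6 null livers, against 132, 195 and 167 FPKM in wild-type livers (limma adjusted p = 0.187, and 0.00676 without that library). The other ID stood at 70.0, 18.1 and 19.9 FPKM in pdia6 null livers, against 108, 135 and 131 FPKM in wild-type livers (limma adjusted p = 0.125, and 0.0182 without it). Crp5 stood at 528, 0.677 and 1.43 FPKM in pdia6 null livers, against 436, 105 and 468 FPKM in wild-type livers (limma adjusted p = 0.387, and 0.0168 without it). At all 3 IDs the library labelled pdia6 null replicate 1 stood far above the other 2 of its group. Tfa, transferrin, stood at 8888, 8707 and 9087 FPKM in pdia6 null livers, against 11981, 12106 and 11624 FPKM in wild-type livers. Each pdia6 null library was lower than each wild-type library, but the log2 change of -0.54 ± 0.24 did not pass (limma adjusted p = 0.358). Fabp10a, the liver fatty acid-binding protein, overlapped at 18483, 34846 and 27202 FPKM in pdia6 null livers and 20944, 28022 and 19842 FPKM in wild-type livers. Ces2a, a carboxylesterase, was the only called gene of 29 hepatocyte markers, at 723, 494 and 868 FPKM in pdia6 null livers against 3048, 2290 and 2545 FPKM in wild-type livers. It was lower by a log2 change of -2.07 ± 0.30 (limma adjusted p = 0.0274), a call that was lost without any one library (0.0577 to 0.107).

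**Figure D5:**
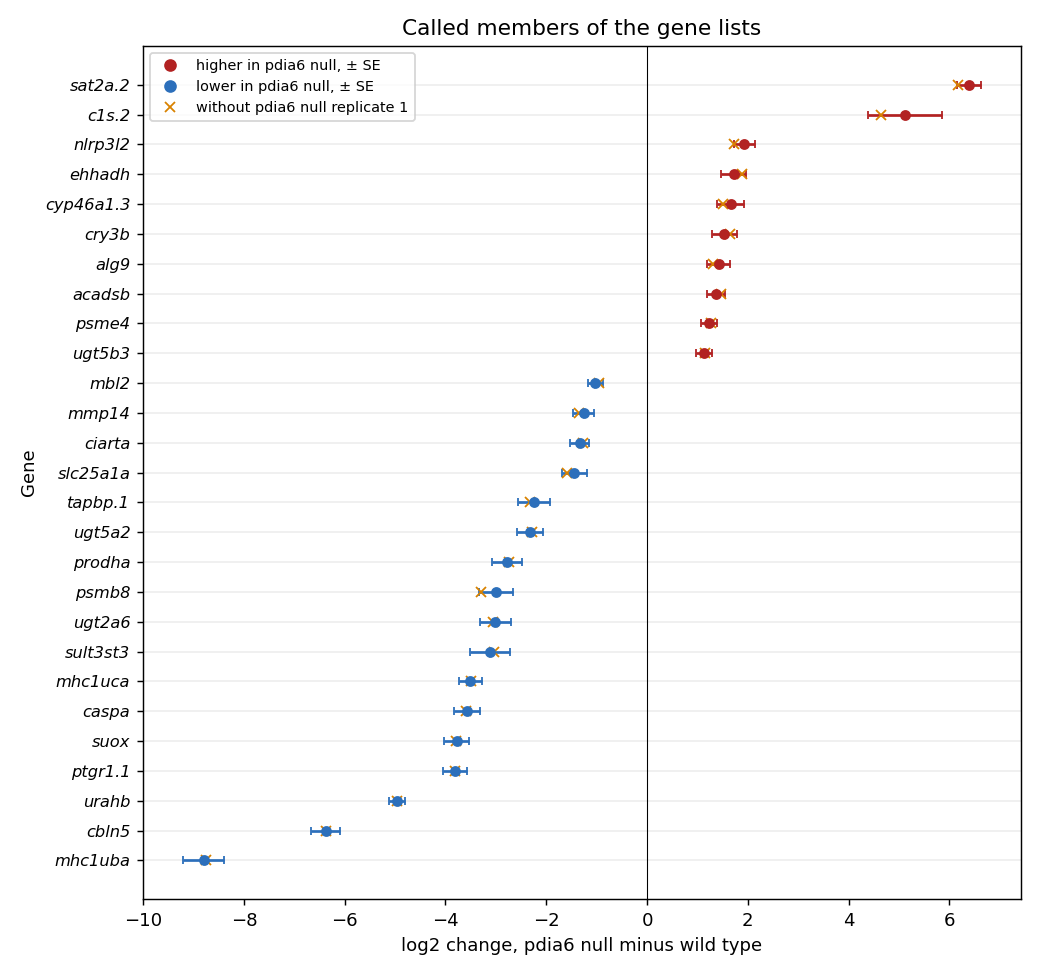
Log2 change, pdia6 null minus wild type (x axis), of 27 called members of the gene lists other than cell type markers (y axis), with the SE as bars and the value without the library labelled pdia6 null replicate 1 as crosses. The crosses keep the sign of all 27 changes, from 6.18 at sat2a.2 to -8.76 at mhc1uba.

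The remaining lists held few calls or none. The circadian clock list had cry3b, a cryptochrome, higher by 1.53 ± 0.25 and ciarta, a clock repressor, lower at a log2 change of -1.34 ± 0.19 (limma adjusted p = 0.0434 and 0.0274). They were the only calls among 35 genes (5.71% called, against 1.4% of all genes tested). Both calls were lost without any one library (limma adjusted p from 0.0551 to 0.148). Psme4, an activator of the proteasome with a namesake ID, was higher by 1.23 ± 0.15 (limma adjusted p = 0.0151) among 48 proteasome genes, a call lost without pdia6 null replicate 2 or wild-type replicates 2 or 3 (0.0588, 0.0736 and 0.0577). Mmp14, a membrane metalloproteinase with a namesake ID, and cd28l, a CD28-like gene of lymphocytes, were lower at log2 changes of -1.26 ± 0.20 and -2.58 ± 0.42 (limma adjusted p = 0.0376 and 0.0434), passing only without wild-type replicate 2 for mmp14 and wild-type replicate 1 for cd28l (0.0481 and 0.0448, against 0.147 and 0.133 at most). None of 32 interferon response genes passed with limma (6 at an unadjusted p below 0.05, median -0.48), and isg15, a ubiquitin-like antiviral protein, overlapped at 1.61, 0.306 and 7.44 FPKM in pdia6 null livers and 5.31, 127 and 90.3 FPKM in wild-type livers, and passed without wild-type replicate 1 alone (limma adjusted p = 0.0448). Limma made no call among 77 cytosolic ribosomal protein genes (median -0.23), 78 nuclear oxidative phosphorylation genes (0.17), 13 mitochondrially encoded transcripts (0.28), 65 ribosome biogenesis genes (0.14), 44 cytosolic heat shock genes (0.15), 31 p53 targets (-0.20) or 37 immediate early genes (-0.43). In the order given, 0, 3, 2, 5, 8, 3 and 5 of them had an unadjusted p below 0.05. The share of all genes tested below that value was 14.6%. Of the nuclear oxidative phosphorylation genes, 30 separated the groups (38.5%, against 20.7% of all genes tested), 27 of them higher in pdia6 null livers. Of the mitochondrially encoded transcripts, 7 separated the groups (53.8%), 6 of them higher and 1 lower.

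Among genes that could be placed in the genome, those next to pdia6 were not among the calls. Of the tested genes, 8950 could be placed in the RefSeq gene order of the build GRCz12tu, and 78 of these were called (0.872%). Places were counted among these genes only. The rest of the 179 called genes, among them all without a symbol, had no place, so whether any lies near pdia6 was not tested. None of the 100 tested genes within 50 places on either side of pdia6 was called by limma or by limma voom, 10 had an unadjusted p below 0.05, and 21 separated the groups (21%, against 19.8% of all placed genes). Of the 78 placed calls, 4 had another call within 5 places, namely phf20l1 with c1s.2 and tapbp.1 with mhc1uba. That is 5.13% of the placed calls, against 8.38% of all placed genes.

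The same genes were read in the focad null libraries, which no rule here used and which would share the wild-type libraries in any comparison. Mhc1uba stood at 0.0776, 0.0734 and 0.0173 FPKM and urahb at 0, 0.0160 and 0 FPKM in focad null replicates 1 to 3, both far below the wild-type levels above. Among the 15 largest named decreases, mhc1uca, rnasek, pcnp, ptgr1.1, caspa, sult3st3 and ugt2a6 also lay below every wild-type library in each focad null library. Psmb8, dnajc16, prodha and ctss2.2 did not. Tapbp.1, outside those 15, stood at 1.78, 1.67 and 0.658 FPKM in the focad null libraries. Cbln5 stood at 76.3, 25.7 and 77.5 FPKM and suox at 41.9, 15 and 39.5 FPKM there, well above their levels in the pdia6 null libraries. Sat2a.2 stood at 0, 0 and 0.0443 FPKM in the focad null libraries, near its absence in wild type. Nlrp3l2 stood at 4.49, 9.38 and 3.83 FPKM and c1s.2 at 146, 47.3 and 82.0 FPKM there, near the pdia6 null levels. Among the 15 largest named increases, c1s.2, nlrp3l2, phf20l1, oclna, cel, mfap4, rab3c and fdx1 lay above every wild-type library in each focad null library. Sat2a.2, itln1, tmem123, ftcdnl1, parp6, rdh8 and nceh1 did not. Cel stood at 41.4, 0.0952 and 0.169 FPKM there. Ehhadh and acadsb of fatty acid oxidation also lay above every wild-type library in each focad null library. Pdia6 itself stood at 28.2, 23.5 and 19.6 FPKM in the focad null libraries. No test of these differences was made.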

How the data were processed

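Snap-frozen livers gave total RNA by Qiagen kits, with 1 µg for a library, per the labels' protocols. Bowtie2 2.2.3, TopHat2 2.0.12, HTSeq 0.6.1 and, as build, danRer11 are named in the submitters' processing notes. Annotation, strand setting and test are not stated there. FPKM for all genes and libraries were deposited as 1 table, beside a table of this comparison with, per the file headers, scaled mean read counts per group (a signal value) and p-values.

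Deposited FPKM were rescaled by the median ratio over the 8201 genes that reached 1 FPKM in each of the 6 libraries. Values of log2(FPKM + 1) were fitted by lmFit and by eBayes (trend and robust on) of limma 3.58.1, R 4.3.3, two-sided, with Benjamini-Hochberg adjustment over 12824 genes and a threshold of 0.05. Log2 changes on this scale understate the change of low genes. Levels in the text are FPKM as deposited. FPKM steps gave whole reads for 100% of 162909 values below 1000 reads (within 0.05), which set the depth and the floor of 3 reads, which covers counting error only. The design foresaw a count test for deposited counts, and the deposited values were FPKM. Of the IDs, 29201 had a symbol.

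Members, the 63 gene lists (2243 of 2455 symbols matched) and the tests were chosen with earlier results of these data known. Named genes were pdia6, the 15 largest increases and 15 largest decreases among called genes with names, up to 4 called members of each list, the 2 with the lowest p in a list with no call, fixed ER and hepatocyte genes (alb is not analysed here), and called neighbours of pdia6. Further genes named for contrast (b2m, mhc1zba, prss1, fabp2, slc25a20, proc, crp5) were chosen after their values were seen. The test was checked on simulated data. Alternatives were other pseudocounts, filters, scalings and fits, each library left out, limma voom, and the authors' table. Some genes that the naming rule picked are not reported here.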

Additional observations from a re-analysis of the deposited data

How the results depend on the processing

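The count of 179 calls (74 higher, 105 lower) ran from 78 to 235 when 1 library was left out (24 to 95 higher, 38 to 140 lower). It was 98 (42 and 56) with no filter on low values, 73 (25 and 48) without both libraries numbered 1, 85 (36 and 49) with limma voom on recovered reads, and 428 (198 and 230) in the authors' deposited table. Here 302 of the 428 in the authors' deposited table were tested, no sign differed, and 159 were among the 179. Looked up for named genes only, that table also called pycr1a of the integrated stress response, cyp2p7 of the cytochrome P450 list and angptl4. The fit of all 9 libraries called 223 genes, among them cebpd and per1 of the immediate early list, both lower. Cebpd is also an acute phase member. With no rescaling the median of all genes shifted by 0.081 on the log2 scale, and 88 genes were higher and 97 lower. Between 136 and 223 genes were called under the other pseudocounts, filters, scalings and fits tried.

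After removal of group means, same-numbered libraries correlated at 0.286, 0.227 and 0.012 over all genes tested. Wild-type replicate 2 correlated best with pdia6 null replicate 3 (0.240). No pairing was used in the main fit, but a correlation over all genes cannot exclude one at some genes. Hspa5, hsp90b1 and calr kept the same order of replicates in both groups. With a replicate block the count was 79 (28 and 51), of which 70 were among the 179.

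Pdia6 kept its direction under every alternative and passed under none, with a log2 change from -4.99 to -2.43 without 1 library. With the replicate block its log2 change was -3.48 ± 0.5 (limma adjusted p = 0.0734). The changes that turned sign were all of genes that did not pass. Without 1 library, log2 changes ran from -0.82 to 3.06 for pdia4, -2.20 to 1.33 for hspa5, -0.63 to 2.06 for hsp90b1, -1.21 to 0.87 for calr, -0.03 to 0.68 for canx, -1.15 to 1.59 for hyou1, -0.24 to 1.53 for dnajb11, -0.95 to 1.22 for sdf2l1 and -0.56 to 0.45 for sel1l. They ran from -0.34 to 0.11 for ern1, -0.07 to 0.72 for atf6, -0.05 to 1.04 for xbp1, -0.42 to 0.07 for atf4a, -0.32 to 0.09 for ddit3, -1.39 to 0.87 for creld2, -0.16 to 1.84 for manf, -0.11 to 0.32 for ero1a and -0.13 to 0.35 for fabp10a. With no rescaling the changes of hspa5, calr, ern1 and ddit3 were 0.07, 0.02, 0.00 and 0.04. Without both libraries numbered 1 those of hyou1, sdf2l1, sel1l and creld2 were -0.14, -0.21, -0.21 and -0.57. The causes were not tested. Of the named results, 17 lost their call with no filter, 24 with the block, 14 with limma voom and between 11 and 24 when 1 library was left out. Depth (46.07 to 51.52 M reads) limits genes near the floor of 3 reads, and wide spread within groups of 3 limits the ER genes.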

Other observations

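Further called genes were picked for their known roles after their values were seen, and other called genes had unrelated roles. Ttpa, the transfer protein of vitamin E, stood at 230, 198 and 204 FPKM in pdia6 null livers, against 84.3, 57.4 and 62.3 FPKM in wild-type livers (log2 change 1.51 ± 0.23, limma adjusted p = 0.0348). Cyp27a3, of the sterol 27-hydroxylase family, stood at 24.9, 21.1 and 24.3 FPKM in pdia6 null livers, against 7.90, 5.14 and 4.8 FPKM in wild-type livers (log2 change 1.73 ± 0.22, limma adjusted p = 0.0169). Each passed in 1 of the 6 fits that left out 1 library. Cygb, cytoglobin, a globin that binds oxygen in many tissues, stood at 11.9, 14 and 12.2 FPKM in pdia6 null livers, against 3.26, 3.31 and 2.94 FPKM in wild-type livers (log2 change 1.61 ± 0.18, limma adjusted p = 0.0108), and passed in 5 of those fits.

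Among the decreases, 1 of 2 IDs of mat2a, which makes the methyl donor S-adenosylmethionine, stood at 0.456, 1.61 and 0.576 FPKM in pdia6 null livers, against 8.81, 9.19 and 8.93 FPKM in wild-type livers (log2 change -2.53 ± 0.25, limma adjusted p = 0.00845), and passed in all 6 of those fits. Pemt, which methylates phosphatidylethanolamine to phosphatidylcholine, stood at 2.27, 2.72 and 0.860 FPKM in pdia6 null livers, against 8.24, 6.78 and 7.02 FPKM in wild-type livers (log2 change -1.65 ± 0.27, limma adjusted p = 0.0437), and passed in none of them. Msrab, of the methionine sulfoxide reductase family, stood at 0, 0.240 and 0.155 FPKM in pdia6 null livers, against 3.95, 3.86 and 5.38 FPKM in wild-type livers (log2 change -2.30 ± 0.18, limma adjusted p = 0.00375), and passed in all 6. Lxn, latexin, an inhibitor of carboxypeptidases, stood at 14.9, 16.3 and 17.3 FPKM in pdia6 null livers, against 62.5, 66.2 and 96.4 FPKM in wild-type livers (log2 change -2.24 ± 0.26, limma adjusted p = 0.0135), and passed in 3.

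Of the 179 called genes, 31 had no symbol. The largest increase of all was in one of them, ENSDARG00000099056, at 153, 148 and 217 FPKM in pdia6 null livers against 0.0667, 0.0223 and 0.0632 FPKM in wild-type livers (log2 change 7.28 ± 0.23, limma adjusted p = 4.73e-05). It stood at 23.9, 14.3 and 28.8 FPKM in the focad null libraries.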
